A study of Mus musculus with 10 samples.

Results

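The genes of the AMPA and kainate receptor subunits, Gria1 to Gria4 and Grik1 to Grik5, were followed in the dentate gyrus of Fndc5 knockout and wild-type mice. They were taken by gene symbol, written in capitals in the table (GRIA1, GRIA2, GRIA3 and GRIA4; GRIK1, GRIK2, GRIK3, GRIK4 and GRIK5), and all 9 were among the 24982 genes of the count table and among the 14867 that passed the filter on low counts. The mice were 5 with a global Fndc5 knockout and 5 wild types, all males of 10 weeks on a C57BL/6 background, and 1 mouse gave 1 RNA-seq library. Fndc5 encodes the membrane protein from which the myokine irisin is cleaved, and the study compared dentate gyrus RNA with and without it. The labels name neither the deleted exons nor a litter or dissection batch.

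AMPA and kainate receptors are ion channels of 4 subunits that open when they bind glutamate. AMPA receptors carry most of the fast excitatory current of the brain, including that of entorhinal (perforant path) input to dentate granule neurons. Kainate receptors are fewer, lie on both sides of the synapse, and are best known in the hippocampus at the mossy fibres, the axons that granule neurons send to hilar mossy cells and to CA3 pyramidal neurons. The kainate subunits fall into those that form channels by themselves (Grik1, Grik2 and Grik3) and the high-affinity subunits Grik4 and Grik5, which need a channel-forming partner.

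The subunits are related in sequence, most closely in the channel pore. The lines show, for each gene, 27 bases of coding sequence from the pore loop (GENCODE M21 transcripts, GRCm38, sense strand, 5′ to 3′). They are shown because this stretch holds the best-known functional difference among the subunits. Each window was placed by a search of the protein for the residues methionine, glutamine, glutamine and glycine in a row. Part of each window is therefore alike by construction, and bases shared between windows do not show how alike whole reads are. Capitals mark the glutamine codon at which adenosine-to-inosine RNA editing places arginine in Gria2 transcripts, which makes AMPA receptors with this subunit nearly impermeable to calcium, and, in part, in Grik1 and Grik2 transcripts.
Gria1: ggggccttcatgCAGcaaggatgtgac
Gria2: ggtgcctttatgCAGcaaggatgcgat
Gria3: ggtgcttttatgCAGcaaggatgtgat
Gria4: ggtgcctttatgCAAcaaggatgtgac
Grik1: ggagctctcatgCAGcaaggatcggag
Grik2: ggagctctcatgCAGcaaggttctgag
Grik3: ggctccctgatgCAGcaaggatctgaa
Grik4: ggaggcttcatgCAGcaaggctccact
Grik5: ggtggcttcatgCAGcagggctcggag
The codon was CAG in 8 genes and CAA in Gria4. The windows lie at chr11:57243082-57243108 in Gria1, chr3:80706899-80706925 in Gria2, chrX:41610253-41610279 in Gria3, chr9:4464125-4464151 in Gria4, chr9:42547611-42547637 in Grik4 and chr7:25022485-25022511 in Grik5, each inside 1 coding exon. Those of Grik1 (chr16:87936108-87940556), Grik2 (chr10:49240789-49244343) and Grik3 (chr4:125691195-125693969) are joined across an intron. Gria1, Gria3 and Grik3 lie on the plus strand and the other 6 genes on the minus strand. Gria2 and Gria3 share 25 of the 27 bases, as do Grik1 and Grik2, and the least alike pairs (Gria4 with Grik4, and Grik3 with Grik4) share 17. How reads that map to several places were treated is not given in the sources used here, and counts per gene show neither editing nor the alternative flip and flop exons.

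Depth ranged from 26226375 to 43802079 counts per library. Fndc5 itself was at 45.4 to 56.7 CPM (counts scaled to library size by TMM) in knockouts, against 69.2 to 80.3 CPM in wild types (log2 fold change -0.55, SE 0.0569, edgeR adjusted p 0.000495), so every knockout library carried less of it. The Fndc5 level in knockouts was 68.1% of that in wild types (95% interval 62.7% to 74.0%), and counts per gene do not show which exons the remaining reads come from. Markers of granule neurons were present in every library: Prox1 averaged 367 CPM in knockouts and 366 CPM in wild types, and Calb1 averaged 213 CPM in knockouts and 216 CPM in wild types. These were not the markers that differed most. Of the 8, 6 had higher and 2 lower values in the knockout. Dsp had a log2 fold change of 0.16 (unadjusted edgeR p 0.0417) and Lct of 0.12 (0.0399). Wild-type mouse 1 lay outside the range of the other wild types in several sums of markers. Its 10 interneuron markers summed to 606 CPM, with the other wild types at 505 to 543 CPM, and its 8 granule neuron markers to 1521 CPM, with the others at 1682 to 1814 CPM. Several results are therefore given with and without it.

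Gria1 was the most abundant subunit transcript, and Grik5 the most abundant kainate subunit. Levels between genes were compared as CPM per kilobase of annotated exon (RPKM). Gria1, whose product GluA1 is the subunit most tied to activity-dependent receptor insertion, was at 321 ± 9.01 RPKM in knockouts and 318 ± 7.43 RPKM in wild types (mean ± SD, n = 5 each). Gria2 followed at 63.7 ± 1.78 RPKM in knockouts and 64.8 ± 2.48 RPKM in wild types, and Grik5 at 64.3 ± 3.88 RPKM in knockouts and 62.6 ± 3.59 RPKM in wild types. The libraries of Gria2 (60.8 to 67.4 RPKM) and Grik5 (58.3 to 68.2 RPKM) overlapped, so these neighbours in the order cannot be ranked. Gria3 was lower, at 22.7 ± 0.778 RPKM in knockouts and 23.3 ± 0.601 RPKM in wild types. Grik4 came next at 14.8 ± 0.868 RPKM in knockouts and 16.1 ± 0.758 RPKM in wild types. Grik3 (9.52 to 12.1 RPKM over all libraries) and Grik2 (8.39 to 10.5 RPKM) overlapped each other and were below every library of Grik4. Gria4 (5.81 to 7.59 RPKM) and Grik1 (0.806 to 1.34 RPKM) were the lowest, and neither overlapped its neighbours.

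**Figure D1:**
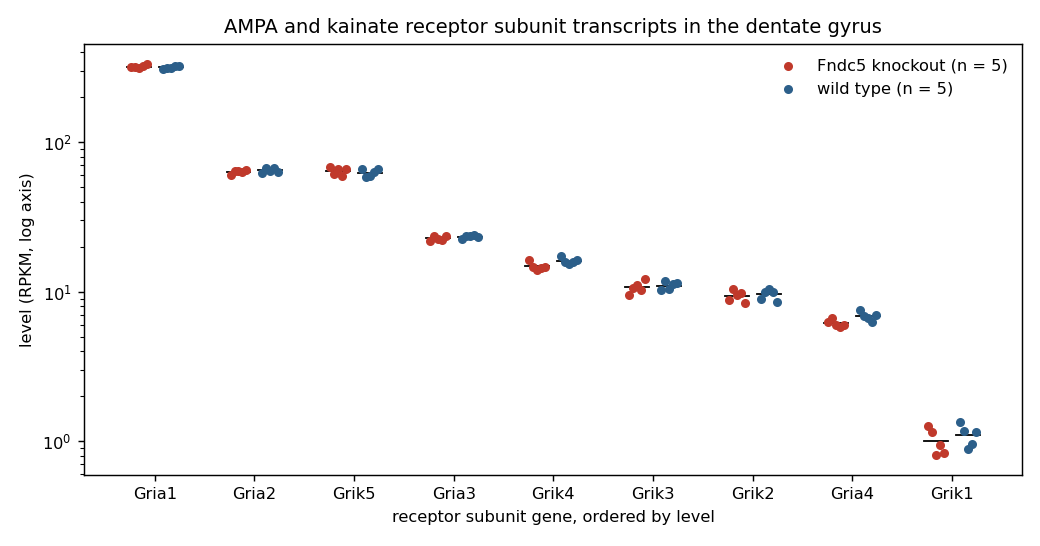
Levels of the 9 subunit transcripts in each mouse (RPKM, log axis), Fndc5 knockouts left and wild types right within each gene; points are mice and lines are means. Gria1 lies at 310.1 to 336 RPKM and Grik1 at 0.806 to 1.34 RPKM, and within each gene the knockout and wild-type points overlap.

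These levels rest on the annotated length, which is the union of all exons of a gene and reaches 15548 bases for Gria2 and 13246 for Grik2, against 6043 for Gria1. With the longest annotated transcript in its place, Gria2 was at 91.1 to 101 RPKM over all libraries, above every library of Grik5 (74.2 to 86.8 RPKM), and Grik2 (11.8 to 14.7 RPKM) overlapped both Grik4 (14.1 to 17.6 RPKM) and Grik3. The ratio of Gria1 to Gria2 was 4.97 over all libraries with exon unions, 3.61 with longest transcripts, and 1.4 when Gria2 was given its shorter coding transcript of 4026 bases. Gria1 stayed above Gria2 under these 3 lengths, and the size of that excess depends on which Gria2 transcript the reads come from.

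The summed AMPA and the summed kainate levels of the genotypes differed by less than the spread between mice. The 4 AMPA subunits together were at 414 ± 10.3 RPKM in knockouts and 413 ± 8.52 RPKM in wild types. The 5 kainate subunits together were at 100.2 ± 3.77 RPKM in knockouts and 100.5 ± 3.5 RPKM in wild types. The ratio of the AMPA to the kainate sum was 4.13 ± 0.184 in knockouts and 4.11 ± 0.155 in wild types. Within the AMPA sum, Gria1 held 77.6% ± 0.514 in knockouts and 77.0% ± 0.555 in wild types, and Gria2, the subunit that sets calcium permeability, held 15.4% ± 0.352 in knockouts and 15.7% ± 0.492 in wild types. These shares rest on exon unions. With the shorter coding transcript for Gria2 and longest transcripts for the others, the Gria2 share was 38.3% over all libraries. Grik5 held 64.2% ± 1.56 of the kainate sum in knockouts and 62.3% ± 1.49 in wild types. No test was made on these sums and shares.

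None of the 9 subunits differed between the genotypes at an adjusted p under 0.05 over all genes tested. That was so in edgeR, in the DESeq2 Wald test and in limma-voom, and at an unadjusted p under 0.05 each of these named the same 2 subunits, Gria4 and Grik4. Over all 14867 genes the edgeR call at the adjusted threshold was made for 0.00673% (Fndc5 alone), and 6.29% had an unadjusted p under 0.05 (3.75% with lower and 2.54% with higher values in the knockout). Of the genes with an unadjusted p under 0.05, 40.4% had higher values in the knockout. Under upper-quartile scaling another set of 951 genes had such a p, and 57.4% of these had higher values. Values were lower in the knockout for 7 of the 9 subunits, with a median log2 fold change of -0.04, and for 49.3% of all genes, with a median of 0.0016. After a correction within libraries for the GC content and length of transcripts, only 4 of the 9 were lower, so no common direction of the subunits can be read.

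**Figure D2:**
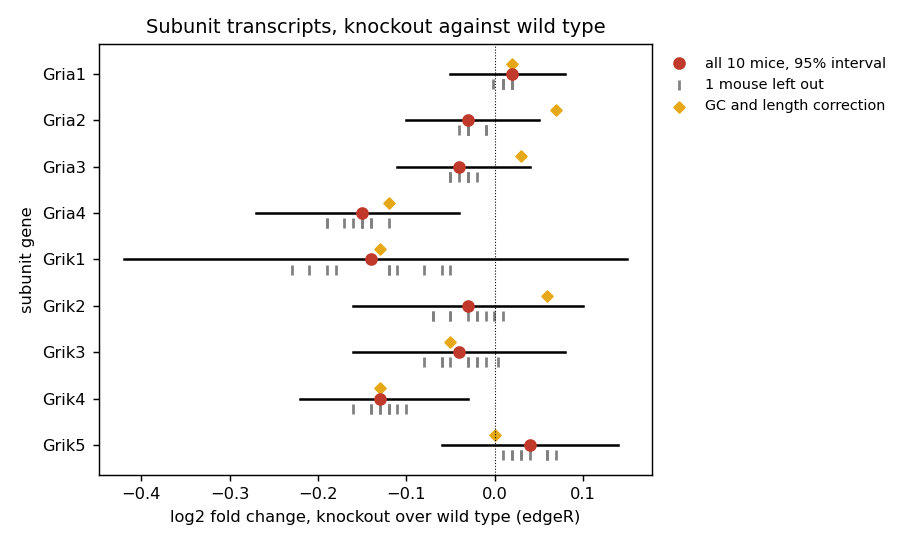
Log2 fold change of each subunit transcript, knockout over wild type, from edgeR; circles are the fit to all 10 mice with 95% intervals, grey ticks the fits without 1 mouse, and diamonds the fit after correction for GC content and length. The intervals of Gria4 (-0.27 to -0.04) and Grik4 (-0.22 to -0.03) lie below 0 and the other 7 include it.

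The 3 abundant AMPA subunits were measured with little spread between mice. Gria1 was at 1913, 1915, 1892, 1946 and 2030.5 CPM in knockouts 1 to 5, against 1874, 1891, 1896, 1966 and 1969 CPM in wild types 1 to 5. Only knockout 5 lay outside the wild-type range, and without it the log2 fold change of 0.02 (95% interval -0.05 to 0.08) was -0.00176. The interval places Gria1 in knockouts at between 96.6% and 106% of the wild-type level.

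Gria2 was at 945, 1005, 999, 987 and 1017 CPM in knockouts, against 961, 1047, 998, 1048 and 986 CPM in wild types. The groups overlapped, with knockout 1 lowest and wild types 2 and 4 highest, and its fitted log2 difference was -0.03 (SE 0.034, 95% interval -0.10 to 0.05, edgeR adjusted p 0.911). Gria2 has a GC content of 36.8% in its longest transcript, the lowest of the 9, and after the GC and length correction its log2 fold change was 0.07 (unadjusted p 0.0732, adjusted p 0.978), outside that interval. Gria3, an AMPA subunit encoded on the X chromosome, was at 216, 232, 223, 218 and 232 CPM in knockouts, against 221, 234, 232, 236 and 228 CPM in wild types. Knockouts 1 and 4 lay below all wild types and the other 3 within their range (log2 fold change -0.04, 95% interval -0.11 to 0.04, and 0.03 after the correction).

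Gria4, which encodes the rapidly gating GluA4 subunit found mostly in interneurons and some glia of the hippocampus, was at lower values in most knockouts. It was at 39.8, 42.2, 37.9, 36.6 and 37.8 CPM in knockouts, against 47.9, 43.7, 41.8, 39.2 and 43.9 CPM in wild types. The 3 lowest mice were knockouts 3, 4 and 5 and the 3 highest were wild types 1, 2 and 5, with knockouts 1 and 2 and wild types 3 and 4 overlapping. Gria4 in knockouts stood at 89.8% of the wild-type level, a log2 fold change of -0.15 (SE 0.055, 95% interval -0.27 to -0.04). Its edgeR p was 0.0123 unadjusted and 0.788 adjusted over all genes, and an exact two-sided permutation test of log2 CPM gave 0.0397 (0.807 adjusted over all genes), where 5 against 5 mice allow no p below 0.00794. Fndc5 itself had that lowest permutation p and was also at 0.807 after adjustment. The adjusted permutation value could therefore name no gene and says nothing of Gria4. Without wild-type mouse 1, the highest, the log2 fold change of Gria4 was -0.12 (unadjusted p 0.0423). Leaving out 1 mouse at a time kept it between -0.19 and -0.12.

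Interneuron markers were lower along with Gria4. All 10 had lower values in the knockout (median log2 fold change -0.12, with 4 at an unadjusted p under 0.05 and 0 past the adjusted threshold in edgeR), and their sum was 479 to 532 CPM in knockouts against 505 to 606 CPM in wild types. Of all genes tested 49.3% had lower values, and 3.75% had lower values at an unadjusted p under 0.05. Without wild-type mouse 1 the wild-type sums were 505 to 543 CPM, 9 of the 10 markers were lower (median -0.07) and 0 had an unadjusted p under 0.05. The log2 ratio of the mean sums, knockout over wild type, was -0.11 with that mouse and -0.06 without it. The number of interneuron markers at an unadjusted p under 0.05 moved with other choices too. It was 0 without knockout 5, 1 without knockout 3, without knockout 4 or by limma-voom, and 6 with the mouse-number block and GC and length correction. Oligodendrocyte precursor markers, the glial type in which Gria4 is also known, summed to 164 to 183 CPM in knockouts and 157 to 186 CPM in wild types (4 of 6 higher, median 0.01), and astrocyte markers to 4397 to 5615 CPM in knockouts and 4679 to 5483 CPM in wild types (3 of 7 higher, median -0.03). Every marker of these 3 lists was detected in all libraries. The part of interneuron content in the Gria4 values was not tested. In bulk tissue fewer cells of a type and less RNA per cell cannot be told apart.

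**Figure D3:**
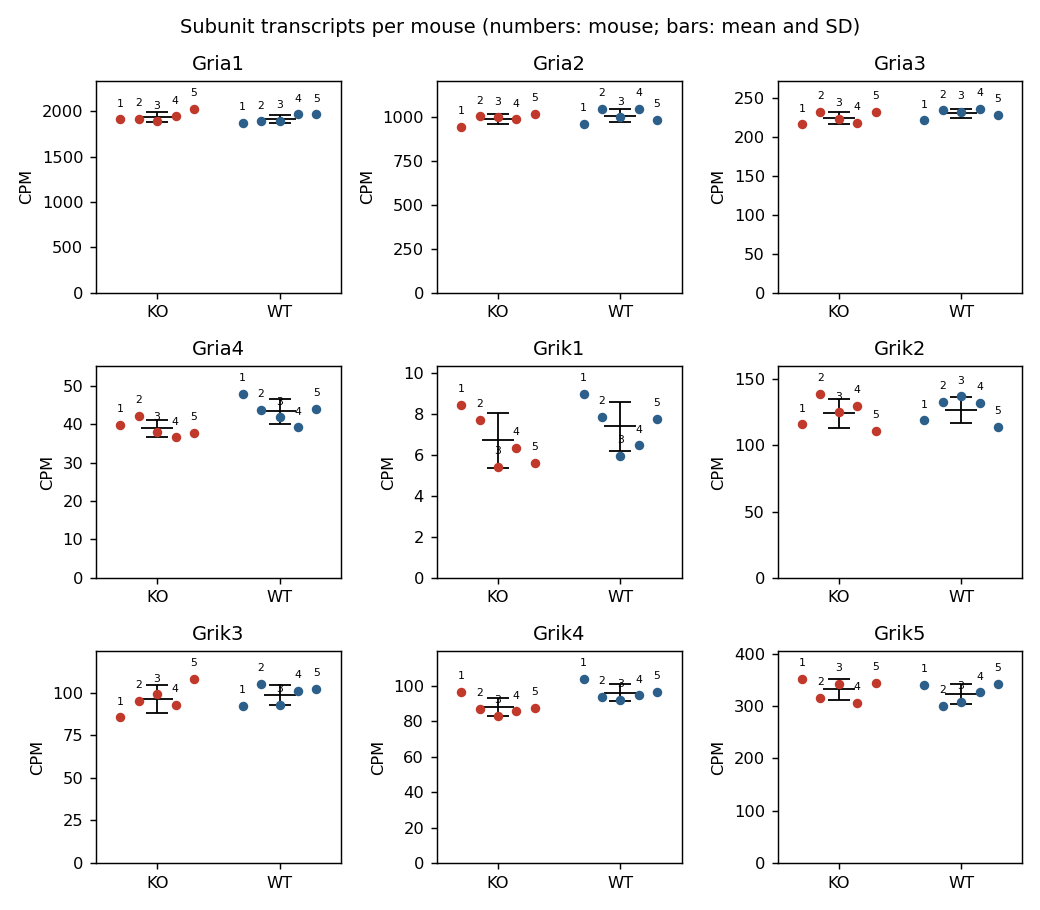
CPM of each subunit in each mouse, knockouts left and wild types right; points carry the mouse number, and bars are the mean and SD of 5 mice. Knockouts 2 to 5 of Grik4 (83.0 to 87.7 CPM) lie below the lowest wild type (92 CPM), knockouts 3 to 5 of Gria4 lie below its lowest wild type (39.2 CPM), and Gria1, Gria2 and Grik2 show broad overlap.

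Among the kainate subunits that form channels by themselves, Grik1 was the scarcest and the most variable. Grik1, which in the hippocampus is known mainly from interneurons, was at 8.45, 7.72, 5.42, 6.37 and 5.62 CPM in knockouts, against 9.0, 7.86, 5.98, 6.47 and 7.76 CPM in wild types. The SD was 19.8% of the mean in knockouts and 16.2% in wild types, and the groups overlapped. Its log2 fold change of -0.14 had a 95% interval of -0.42 to 0.15 (edgeR adjusted p 0.881), the widest of the 9, which reaches from 74.8% to 111% of the wild-type level. It was -0.05 without wild-type mouse 1 and -0.23 without knockout mouse 1.

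Grik2, the main channel-forming subunit of mossy fibre kainate receptors, was at 116, 139, 125, 130.1 and 111 CPM in knockouts, against 119, 133, 137, 132 and 114 CPM in wild types. Knockouts held both the highest and the lowest value, and the log2 fold change was -0.03 (95% interval -0.16 to 0.10) and 0.06 after the GC and length correction. Grik3, a subunit of low glutamate affinity that also takes part in presynaptic receptors, was at 85.4, 95.3, 99.0, 92.8 and 108 CPM in knockouts, against 92.1, 105, 92.9, 101 and 102 CPM in wild types. Here too the knockouts spanned the wild-type range (log2 fold change -0.04, 95% interval -0.16 to 0.08, and 0.00408 without knockout mouse 1). Grik3 is the one subunit gene on the chromosome of Fndc5: it lies at chr4:125490700-125714173, 3.42 megabases from Fndc5.

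Of the high-affinity subunits, Grik4 had lower and Grik5 slightly higher mean values in the knockout. Grik4, whose transcript marks CA3 pyramidal neurons and is also found in granule neurons, was at 96.7, 87.2, 83.0, 85.7 and 87.7 CPM in knockouts, against 104, 93.7, 92, 94.7 and 96.7 CPM in wild types. Knockouts 2 to 5 were below every wild type, and knockout 1 lay within the wild-type range. Grik4 in knockouts stood at 91.6% of the wild-type level, a log2 fold change of -0.13 (SE 0.0454, 95% interval -0.22 to -0.03). Its edgeR p was 0.0128 unadjusted and 0.788 adjusted over all genes, and the exact two-sided permutation test gave 0.0317 (0.807 adjusted over all genes, the value that Fndc5 also had). Leaving out 1 mouse at a time kept it between -0.16 and -0.10, with -0.10 (unadjusted p 0.0405) without wild-type mouse 1, and it was -0.13 after the GC and length correction.

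The 8 markers of CA2 and CA3 pyramidal neurons summed to 390.2 to 428 CPM in knockouts and 395 to 428 CPM in wild types, with 5 lower and 3 higher (median log2 fold change -0.01), or 3 lower and 5 higher without wild-type mouse 1 (median 0.03). The 8 granule neuron markers were higher for 6 and lower for 2 (median 0.03), or 4 and 4 without wild-type mouse 1 (median -0.02), with a sum of 1685 to 1831 CPM in knockouts and 1521 to 1814 CPM in wild types. None of these markers passed the adjusted threshold in edgeR. At an unadjusted p under 0.05 there were 2 granule neuron markers, Dsp and Lct, both higher, and 1 CA2 and CA3 marker, Amigo2, lower (log2 fold change -0.23). Of all genes tested 2.54% had higher and 3.75% lower values at such a p. Without wild-type mouse 1 there were 1 granule neuron marker, lower, and 0 CA2 and CA3 markers. The granule neuron count was 0 without knockout 3, without knockout 5 or without wild-type mouse 2. The part of cell content in the Grik4 values was not tested. The granule neuron list shares C1ql2 with the kainate partners described next.

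Grik5 was at 352, 316, 343, 306 and 344 CPM in knockouts, against 341, 301, 308, 326 and 342 CPM in wild types. Knockouts 1, 3 and 5 were above all wild types by a small margin and the other 2 lay within their range (log2 fold change 0.04, 95% interval -0.06 to 0.14, edgeR adjusted p 0.901, and 0.000354 after the GC and length correction). As a description chosen after these values were seen, the share of Grik4 in the kainate sum was 13.7% to 15.6% in knockouts and 15.7% to 16.7% in wild types. The groups did not overlap in this share, and they overlapped in the level of Grik4. None of the 9 subunits had levels without overlap, and of all genes tested 0.895% did (0.437% with the knockouts lower), a rate for single levels that says nothing of a share chosen after its values were seen. With longest transcripts the share was 11.3% to 12.9% in knockouts and 13% to 13.9% in wild types, again without overlap. Grik4 and Grik5 together held 78.9% ± 1.52 of the kainate sum in knockouts and 78.4% ± 1.52 in wild types.

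The partners of the receptors did not pass the adjusted threshold either: 0 of 40 genes in 5 lists did in edgeR, and 3 had an unadjusted p under 0.05. Of all genes tested 6.29% had such a p, and 3 of 40 is near that share. Of the 12 auxiliary subunits of AMPA receptors, the membrane proteins that set their gating and surface delivery, 7 had higher and 5 lower values (median log2 fold change 0.01). By the smallest p these were Shisa6 (log2 fold change -0.06, SE 0.0424), Gsg1l (-0.13, SE 0.0863, but -0.05 without wild-type mouse 2), Shisa7 (0.06, SE 0.0434) and Cacng3, a TARP-type auxiliary subunit (0.07, SE 0.0563). The 12 genes of assembly, trafficking and anchoring were split 7 higher to 5 lower (median 0.01). Among them Grip1, a PDZ scaffold that binds the tails of GluA2 and GluA3, was at 30.4, 31.6, 27.9, 28.8 and 29.4 CPM in knockouts, against 33.8, 32.4, 30.6, 30.9 and 31.5 CPM in wild types. Knockouts 1, 3, 4 and 5 lay below every wild type (log2 fold change -0.10, SE 0.0479, unadjusted p 0.0462, edgeR adjusted p 0.788), and without wild-type mouse 1 the unadjusted p was 0.122. Porcn (0.07), Gripap1 (0.06) and the synaptic scaffold gene Dlg4 (0.04) had higher values.

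For the kainate partners, 3 of 4 genes had lower values (median -0.08). Neto1, an auxiliary subunit of kainate receptors, was at 135, 134, 105, 123 and 134 CPM in knockouts, against 171, 147, 121, 132 and 139 CPM in wild types. The groups overlapped, with wild-type mouse 1 highest and knockout mouse 3 lowest, and the log2 fold change was -0.17 (SE 0.0816, edgeR adjusted p 0.789). It was -0.09 without wild-type mouse 1 and -0.10 after the GC and length correction. Neto2 was at -0.11 (SE 0.0972), at -0.02 without wild-type mouse 2 and at -0.01 after that correction. The secreted proteins C1ql2 and C1ql3, which granule neurons release at mossy fibre synapses where they bind kainate receptors, were at 0.05 (SE 0.0531) and -0.05 (SE 0.038) on the log2 scale. Without wild-type mouse 1, C1ql2 was at 0.000848 and C1ql3 at -0.08.

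Of the 9 genes of secreted and membrane proteins that gather AMPA receptors at synapses, 6 had lower and 3 higher values (median -0.06). Nptx2, an activity-regulated pentraxin, was at 12.3, 13.2, 11.8, 14.1 and 13.5 CPM in knockouts, against 11.4, 15.7, 17.6, 20.3 and 16 CPM in wild types. All wild types but mouse 1, the lowest of the 10 mice, were above every knockout (log2 fold change -0.32, SE 0.113, unadjusted p 0.0114, edgeR adjusted p 0.788), and its log2 fold change was -0.43 without that mouse (edgeR adjusted p 0.281) and -0.23 without wild-type mouse 4 (unadjusted p 0.0434). Lrrtm2, a postsynaptic adhesion protein that stabilises AMPA receptors, was at 44.4, 49.5, 42.1, 49.4 and 42.9 CPM in knockouts, against 46.5, 60.5, 51.2, 54.0 and 47.4 CPM in wild types. Wild types 2, 3 and 4 were above every knockout (log2 fold change -0.19, SE 0.069, unadjusted p 0.0158, edgeR adjusted p 0.788, and -0.11 after the GC and length correction). Olfm3 (-0.16, SE 0.0884) and Olfm2 (-0.08, SE 0.0739) were the next by p, with Olfm3 at -0.07 after the GC and length correction and Olfm2 at -0.03 without wild-type mouse 1.

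The RNA editing enzymes were measured because Adarb1 edits the pore codon of Gria2. Adarb1 averaged 266 ± 12.2 CPM in knockouts and 272 ± 9.42 CPM in wild types (log2 fold change -0.03, SE 0.0383). Adar averaged 254 ± 13.1 CPM in knockouts and 255 ± 12.9 CPM in wild types, and Adarb2, for which no editing activity is known, averaged 49.1 ± 1.78 CPM in knockouts and 45.4 ± 3.84 CPM in wild types (log2 fold change 0.11, SE 0.0537, edgeR adjusted p 0.789).

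**Figure D4:**
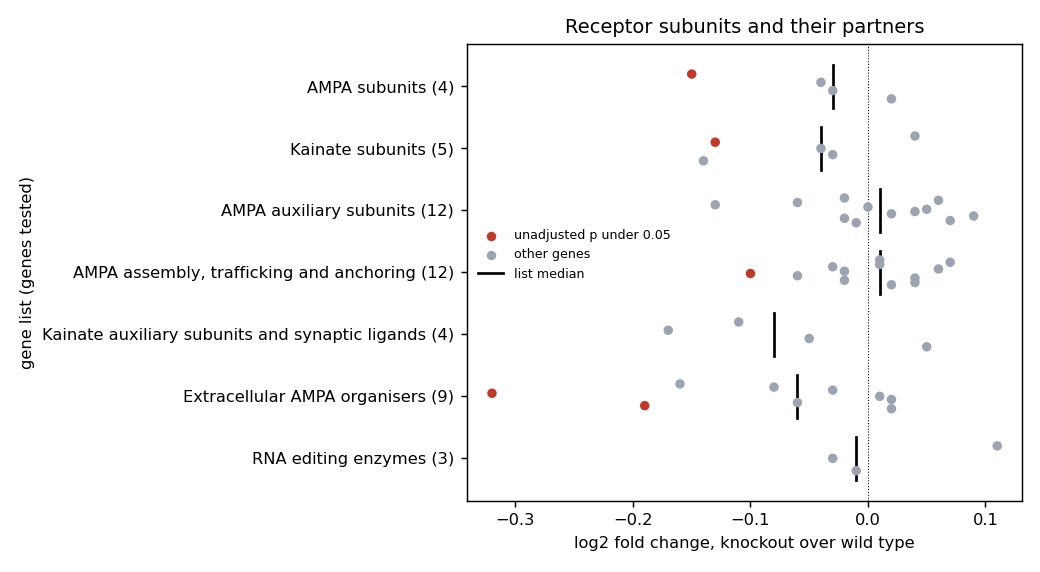
Log2 fold change (knockout over wild type, edgeR) of every tested gene in 7 lists of subunits and partners; each point is a gene, red points have an unadjusted p under 0.05, and black bars are list medians. The points lie between -0.32 (Nptx2) and 0.11 (Adarb2), and no point passed the adjusted threshold.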

How the data were processed

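Bulk RNA-seq of dentate gyrus was analysed from the deposited table of raw counts per gene, 1 column per mouse (5 knockouts and 5 wild types). The submitters' processing notes list STAR 2.5.1b, Cufflinks 2.2.1 and the mouse build mm10, without their roles; the sources used here give neither the strandedness of counting nor the treatment of reads with several alignments. Nothing in the labels ties mice to litters or batches, so p-values measure the spread between these libraries.

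Genes were filtered with filterByExpr (14867 of 24982 kept), scaled by TMM and fitted with the quasi-likelihood test of edgeR 4.0.16 in R 4.3.3, with Benjamini-Hochberg adjustment over all genes tested and a threshold of 0.05. CPM used TMM-scaled library sizes. Single genes were also tested by the exact two-sided permutation test over all 252 assignments of mice. RPKM divided CPM by the exon union of GENCODE M21 (GRCm38, the sequence of mm10), and 24490 symbols of the table matched that annotation. Permutation p-values were adjusted over all genes in the same way. The closest pair of libraries of 1 genotype had a chi-square of 4.63 per degree of freedom, so no library was a copy of another of its genotype. Pairs across the genotypes were not compared in this way.

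Alternatives were another scaling (upper quartile), testing without the filter on low counts, a filter at 1 CPM in 5 libraries, a block for mouse number, a correction for GC content and length (splines with 4 degrees of freedom in each library, for the 99% of genes with both values), both of the last together, DESeq2 1.42.0, limma-voom 3.58.1, each mouse left out, and other gene lengths. The block with the correction and the shortest Gria2 transcript were chosen after seeing the data. The 9 subunits, partner lists and marker lists were chosen with earlier results of these data known. Named were all subunits, Fndc5, and up to 4 genes per partner list with the smallest p. Another list of related genes is not reported here.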

Additional observations from a re-analysis of the deposited data

How the results depend on the processing

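The lower Fndc5 value held under all 18 alternatives (log2 fold change -0.59 to -0.51, highest edgeR, DESeq2 or limma adjusted p 0.00415). No subunit passed the adjusted threshold under any of them, and Gria4 and Grik4 kept an unadjusted p under 0.05 under each. Gria2 joined them with the replicate block and the GC and length correction together. It went the other way there, with higher values in the knockout (log2 fold change 0.07, unadjusted edgeR p 0.0253). Genes past the threshold numbered 1 in edgeR, 8 with the replicate block, 10 with the block and the GC and length correction, and 3 by DESeq2. Leaving out 1 mouse gave 1 to 3, with 2 without knockout mouse 2 and 3 without wild-type mouse 1. The cause was not tested.

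The shared mouse numbers give no pairing that the labels state: correlations of same-numbered deviations were 0.209, 0.204, 0.108, 0.00901 and 0.0282 and 6 of 10 libraries correlated best with their own number, a hint from the data. In the library descriptions each wild type is numbered next to the knockout with the same mouse number, without a litter or batch being named. Whether the mice were paired cannot be told. With the block the edgeR adjusted p was 0.26 for Gria4, 0.208 for Grik4 and 0.156 for Neto1, whose unadjusted p was 0.000648. With the block 1493 of the 14867 genes had an unadjusted p under 0.05. Without the block the unadjusted edgeR p of Neto1 was 0.0559, and 0.263 after the GC and length correction. With block and correction together it was 0.018 (adjusted 0.601).

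Signs turned, with the cause not tested, only for values near 0. With the GC and length correction, Gria2 was at 0.07, Gria3 at 0.03 and Grik2 at 0.06, and the same 3 values were found with the block added, where Grik5 was at -0.000698. Upper-quartile scaling put Adar at 0.00392. Leaving out 1 mouse gave -0.00176 to 0.02 for Gria1, -0.07 to 0.01 for Grik2, -0.08 to 0.00408 for Grik3 and -0.04 to 0.03 for Adar.

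The Gria2 share of the AMPA sum, 15.6% over all libraries, was 19.4% with longest transcripts and 38.3% with the shortest coding Gria2 transcript, and the ratio of Gria1 to Gria2 of 4.97 was 3.61 and 1.4 under these lengths, by their construction. Unadjusted p-values under 0.05 numbered 935 in edgeR, 1493 with the block and 557 to 1234 without 1 mouse.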

Other observations

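The distances between subunits over the 10 mice ranged widely. Measured as the root mean square difference of log2 CPM, each relative to its mean over the libraries, Gria2 and Gria3 were the closest pair of subunits (0.024) and Grik1 and Grik3 the farthest (0.295), and Gria4 and Grik4 differed by 0.0734. The root mean square deviation of each gene from its own mean was 0.0452 for Gria2, 0.0435 for Gria3, 0.242 for Grik1 and 0.0981 for Grik3. The order of distances thus partly follows how much each gene varied, and Grik1 had the fewest counts. Among all genes tested, those closest to Gria1 were Dpp6 (0.0143) and R3hdm2 (0.0183). Gria2 lay closest to Prkce (0.0198) and Hnrnpk (0.0203), and Gria3 to Dhx15 (0.0151) and Prkce (0.0154), so Prkce was named for both. Gria4 lay closest to Ppp2r2b (0.0417) and Epb41l4b (0.0455).

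Of the kainate subunits, Grik5 had the closest neighbours, Zfp513 (0.0241) and Fam19a2 (0.0248). Grik3 lay closest to Zfp827 (0.0353) and Ncoa1 (0.0459), Grik4 to Prepl (0.0421) and Txnl1 (0.0427), and Grik2 to Map3k2 (0.0461) and Akap17b (0.0472). Grik1, the scarcest, had none nearer than Cpne2 (0.0945) and Frem1 (0.107). The measure favours genes that vary little over the mice, and all values share the same 10 libraries.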
